A study of Mus musculus with 16 samples.

Results

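Interleukin-6 (IL-6) family cytokines act on cells through receptor complexes that share the chain gp130, encoded by Il6st. Ligand binding activates the Janus kinases bound to these receptors, which phosphorylate the transcription factor STAT3, and phosphorylated STAT3 moves to the nucleus and binds DNA as a dimer. One of its best known targets is Socs3, whose protein binds gp130 and the kinases and limits the signal. In the brain the pathway is known for its part in astrocyte reactivity and in the response of vessels and glia to peripheral inflammation.

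The 10 genes of this pathway described here were chosen by symbol, with earlier results of these data known. They are the ligands Osm and Lif, the receptor chains Il6ra, Il11ra1, Il6st, Osmr and Lifr, the transcription factor Stat3, and the inhibitors Socs3 and Socs2. All 10 were found among the 55487 genes of the table. Of these 10, 8 passed the filter on low values and were tested with 18859 genes in all, while Osm and Lif did not pass it. Each of the 8 was above 2.6 CPM (reads on a gene per 1000000 reads on all genes) in all 16 mice, so none of them entered the test through its LPS-treated mice alone.

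RNA came from the cortex of wild-type C57Bl6 male mice aged 2 months, with no transgene or deletion in any group. Mice received lipopolysaccharide (LPS, a bacterial endotoxin) at 2 mg/kg or PBS by intraperitoneal injection on 2 consecutive days, at ZT1 (1 hour after lights on) or ZT13 (1 hour after lights off), and tissue was collected on the third day at the same time of day (TOD). The groups held 3 PBS-treated mice and 5 LPS-treated mice at ZT1, and 3 PBS-treated mice and 5 LPS-treated mice at ZT13. The comparisons ask which genes the endotoxin changed at each TOD, and whether that response or the baseline differed with TOD.

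Library depth was 20251840 to 29112758 reads on genes, as read from the spacing of the lowest values. The treatment field of the labels contradicted the sample title in 12 of 16 mice, and the titles were used. By title, Gfap, the intermediate filament gene of reactive astrocytes, was at 111 to 123 CPM in every PBS-treated mouse and at 572 to 1134 CPM in every LPS-treated mouse. Markers of the labelled tissue were abundant, with 5 neuronal markers summing to 3984 to 4658 CPM and 6 astrocyte markers to 4946 to 5482 CPM. Whole cortex holds many cell types, so more cells of a type and more RNA per cell cannot be told apart. 

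LPS raised the transcript levels of receptor chains, of Stat3 and of Socs3, whereas Il11ra1 and Socs2 did not pass the test at either TOD. At ZT1, 6 of the 8 tested genes passed (Il6ra, Il6st, Osmr, Lifr, Stat3 and Socs3), against 16.2% of all genes tested. At ZT13, 5 of 8 passed (the same genes without Lifr), against 28.6% of all genes tested. All of these members were higher in LPS-treated mice, a direction taken by 11.1% of all tested genes at ZT1 and 19.2% at ZT13, while 5.15% and 9.4% were called lower. Scaling bears on that direction for genes at large, since 2089 of 3061 genes called at ZT1 were higher with CPM as deposited and 1493 of 2919 after quantile normalization. At ZT13 these were 3629 of 5401 and 2540 of 5646. Over the 8 members the median log2 fold change reached 0.51 (ZT1) and 0.77 (ZT13), beside 0.04 and 0.05 over all genes tested. The members were chosen with earlier results of these data known, so these counts and medians beside all genes are a description only.

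**Figure D1:**
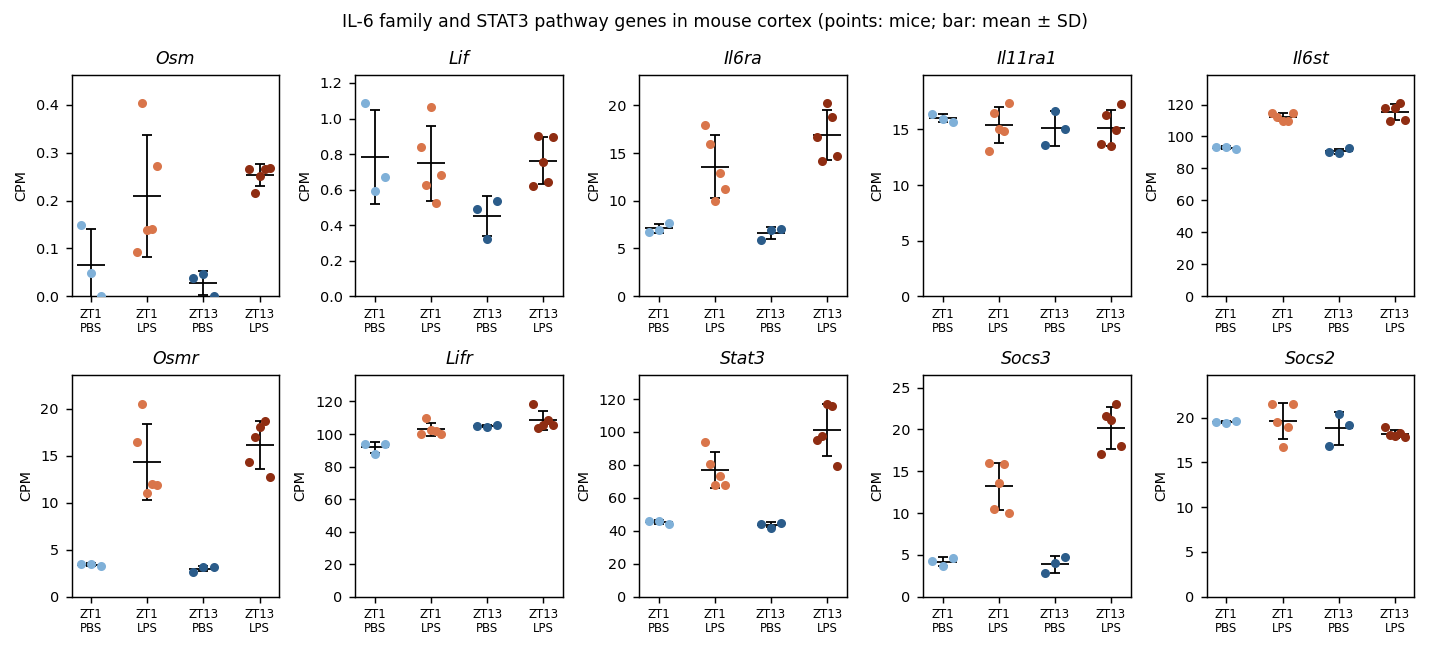
CPM of the 10 genes in each of the 16 mice, by group, with a linear axis from 0 in each panel. Points are mice, the long bar is the group mean and the whiskers are the SD (the whisker of Osm in ZT1 PBS runs below the axis). In Il6ra, Il6st, Osmr, Stat3 and Socs3 every LPS-treated mouse lies above every PBS-treated mouse, while the groups overlap in Il11ra1 and Socs2.

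Transcripts of other cell types moved in the same comparisons. Among endothelial markers, 5 of 6 were higher and 1 (Flt1) was lower at ZT1, and 6 of 6 were higher at ZT13. Their summed level was 126 to 129 CPM in ZT1 PBS mice, 149 to 207 in ZT1 LPS mice, 81.2 to 99.5 in ZT13 PBS mice and 204 to 235 in ZT13 LPS mice. Microglial markers were higher for 5 of 6 genes and lower for P2ry12 at both times, with sums of 182 to 205 CPM over both PBS groups and 232 to 389 CPM over both LPS groups. Neutrophil markers summed to at most 0.789 CPM after PBS, 8.19 to 45.3 CPM in ZT1 LPS mice and 29.0 to 81.0 CPM in ZT13 LPS mice, with 3 of 4 tested genes higher at ZT1 and 4 of 4 at ZT13. The tested neutrophil genes passed the filter at 1 CPM only through LPS-treated mice, so being tested already favoured a higher value after LPS. Ly6g, Camp and Cxcr2 were at or under the level of 3 reads in both PBS groups, and so was S100a8 in the ZT13 PBS group. Monocyte and perivascular macrophage markers were higher for 3 of 4 genes at both times. Astrocyte markers were higher for 3 of 6 genes at ZT1 and 3 of 6 at ZT13 with 1 lower, and their sums overlapped between all groups. The part of these shifts in the member genes' values was not tested.

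Neuronal markers passed for 0 of 5 genes at ZT1 (1 at an unadjusted p under 0.05 by limma) and were lower for 3 of 5 at ZT13. Oligodendrocyte markers were lower for 1 of 4 at ZT1 and 3 of 4 at ZT13, and mural markers higher for 1 of 4 and 2 of 4. No choroid plexus marker passed (0 of 3 at an unadjusted p under 0.05 in each), and their sum ranged from 11.2 to 952 CPM between mice, with both low and high mice in every group.

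The ligand transcripts were scarce. Osm, encoding oncostatin M (chr11:4236420-4241026, plus strand), had 3, 1 and 0 reads in the ZT1 PBS mice and 2, 9, 4, 4 and 6 reads in the ZT1 LPS mice. At ZT13 it had 1, 1 and 0 reads after PBS and 6, 5, 6, 7 and 6 reads after LPS. Hence at ZT13 every LPS-treated mouse was above every PBS-treated mouse, and at ZT1 the groups overlapped. The ratio of summed reads per depth was 3.25 at ZT1 (95% exact interval 1.123 to 12.9) and 8.90 at ZT13 (2.26 to 76.9), intervals that cover counting error only. The exact permutation p was 0.14 at ZT1 and 0.036 at ZT13. With no filter on low values, Osm passed at ZT13 (limma adjusted p = 0.00033) and not at ZT1 (adjusted p = 0.38).

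Lif (chr11:4257557-4272514, plus strand), the neighbour of Osm, had 12 to 22 reads in ZT1 PBS mice and 14 to 31 in ZT1 LPS mice. At ZT13 it had 7 to 13 reads after PBS and 14 to 21 after LPS. The ratio of summed reads per depth was 0.968 (95% exact interval 0.679 to 1.39) at ZT1 and 1.67 (1.10 to 2.58) at ZT13. The ZT13 groups did not overlap (exact permutation p = 0.036), and Lif missed the threshold there with no filter (adjusted p = 0.079). Il6 itself, encoding IL-6, had no reads in 12 of 16 mice and at most 3 reads in any mouse, so no difference in it was detectable at this depth. Transcripts in cortex do not measure ligand protein, and none was measured in these data.

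Osmr, the signalling receptor chain for oncostatin M (chr15:6813577-6874969, minus strand, build GRCm38), had the largest fold change of the 5 receptor chains among the members. It was at 3.50, 3.46 and 3.28 CPM in the ZT1 PBS mice and at 16.5, 20.5, 10.99, 11.97 and 11.9 CPM in the ZT1 LPS mice. At ZT13 it was at 2.66, 3.10 and 3.18 CPM after PBS and at 14.3, 17.0, 18.1, 18.8 and 12.8 CPM after LPS. The LPS groups did not overlap the PBS groups at either time. On the log2(CPM + 0.5) scale, which understates the change of low genes, the fold change was 1.89 (SE 0.18, limma adjusted p = 3.8e-05) at ZT1 and 2.25 (SE 0.12, adjusted p = 1.2e-08) at ZT13. Ranked by increase, Osmr was number 164 of 18859 genes at ZT1 and number 180 at ZT13.

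Il6ra, the ligand-binding chain for IL-6 (chr3:89864059-89913196, minus strand), rose less. Its values were 6.77, 6.95 and 7.64 CPM in ZT1 PBS mice and 17.9, 15.9, 9.98, 12.9 and 11.2 CPM in ZT1 LPS mice. In ZT13 mice they were 5.87, 6.89 and 7.03 CPM after PBS and 16.7, 14.1, 20.2, 18.8 and 14.7 CPM after LPS. All LPS-treated mice were above all PBS-treated mice, with the widest spread in the ZT1 LPS group. The log2 fold change was 0.86 (SE 0.16, adjusted p = 0.0046) at ZT1 and 1.29 (SE 0.11, adjusted p = 1.4e-06) at ZT13. The ZT1 call did not hold without the filter on low values (adjusted p = 0.061). Il6ra shares 242 exon bases with the antisense gene Gm42809, which did not exceed 0.357 CPM in any mouse.

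Il6st, which encodes gp130 itself (chr13:112464070-112510086, plus strand), was abundant and moved little. It was at 92.2 to 93.7 CPM in ZT1 PBS mice and at 109.8 to 115 CPM in ZT1 LPS mice. At ZT13 the range was 89.5 to 92.6 CPM after PBS and 109.6 to 121 CPM after LPS. The groups were narrow and separate at both times. The log2 fold change was 0.27 (SE 0.04, adjusted p = 5.5e-04) at ZT1 and 0.34 (SE 0.04, adjusted p = 2.5e-05) at ZT13, a fold of 1.21 and 1.27.

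Lifr, the chain that pairs with gp130 to bind leukemia inhibitory factor (chr15:7090614-7197489, plus strand), was as abundant as Il6st. It was at 93.9, 88.0 and 93.9 CPM in ZT1 PBS mice and at 100.2, 110.0, 102, 102 and 100.01 CPM in ZT1 LPS mice. At ZT13 it was at 105, 104 and 105 CPM after PBS and at 119, 104, 106, 108 and 105 CPM after LPS. Thus the groups were separate at ZT1 and overlapped at ZT13. The log2 fold change was 0.16 (SE 0.05, adjusted p = 0.031) at ZT1 and 0.05 (SE 0.04, adjusted p = 0.48) at ZT13. The ZT1 call was lost with median-of-ratios scaling (0.12, adjusted p = 0.15), where the ZT13 difference also turned to -0.011, and in 5 of 8 fits that left out 1 mouse, with adjusted p of up to 0.15. The ZT1 LPS mouse with the highest Lifr, replicate 2, stood apart from the other 4, and without it the call at ZT1 held.

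Il11ra1, the ligand-binding chain for IL-11 (chr4:41699989-41769474, plus strand), was at 15.7 to 16.4 CPM in ZT1 PBS mice and 13.1 to 17.3 CPM in ZT1 LPS mice. At ZT13 the ranges were 13.6 to 16.7 CPM after PBS and 13.5 to 17.2 CPM after LPS. The groups overlapped fully, and the 95% CI of the log2 fold change was -0.26 to 0.13 at ZT1 and -0.20 to 0.20 at ZT13. The ZT13 estimate was 0.0021 and turned to -0.054 with median-of-ratios scaling and -0.13 with quantile normalization, so no direction can be given. Its value is uncertain because near-identical copies named Il11ra2 could share its reads, although no copy exceeded 0.671 CPM. Il11ra1 also shares 8 exon bases with Ccl27a on the opposite strand, which reached 47.05 CPM, and the counting strand is not given.

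The plot of fold changes by gene sets the responses side by side at both TODs, with the TOD comparisons in the second panel.

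**Figure D2:**
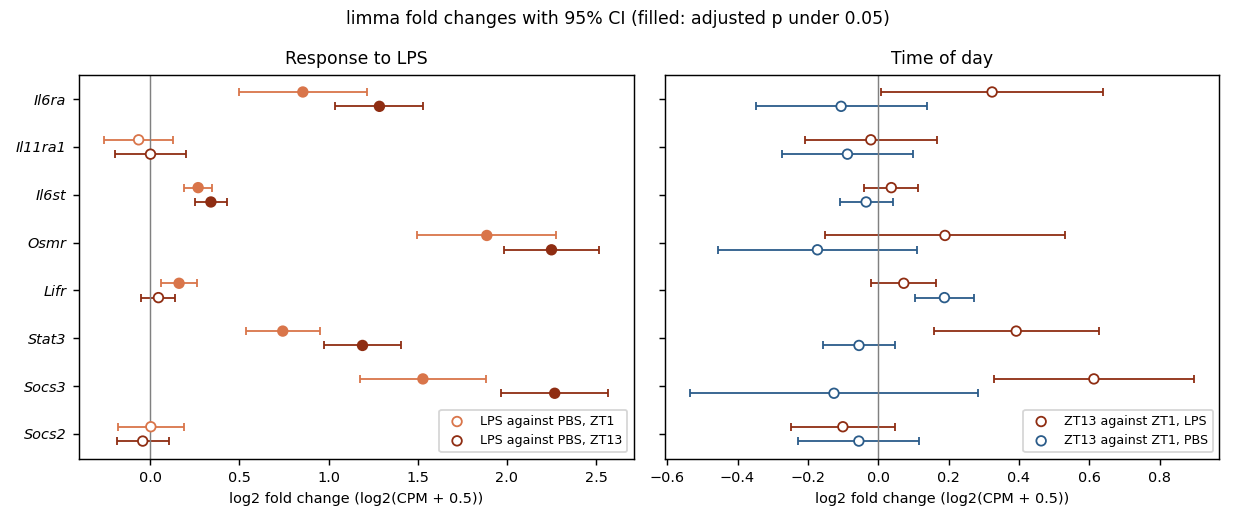
log2 fold changes of the 8 tested genes (limma, log2(CPM + 0.5)) with 95% CI. The first panel shows LPS against PBS at ZT1 and ZT13, the second ZT13 against ZT1 within LPS-treated and within PBS-treated mice. Filled points have an adjusted p under 0.05, and none of the points in the TOD panel is filled.

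Since OSMR and LIFR both pair with gp130, their relative amounts were compared within each mouse as the ratio of CPM, which does not depend on scaling between libraries. In ZT1 PBS mice the ratio of Osmr to Lifr was 0.0350 to 0.0393, and in ZT1 LPS mice it was 0.107 to 0.187. In ZT13 PBS mice it was 0.0254 to 0.0302, and in ZT13 LPS mice 0.121 to 0.173. Put the other way, Lifr exceeded Osmr 25.5 to 39.4 times by CPM after PBS and 5.36 to 9.32 times after LPS. LPS moved the log2 ratio by 1.87 at ZT1 and by 2.38 at ZT13, higher in 5 of 5 LPS-treated mice than in every PBS-treated mouse at each time (two-sided exact permutation test, p = 0.036 in each, the smallest that 3 against 5 mice allows). Over 4 comparisons the Benjamini-Hochberg adjusted exact p was 0.071 for both, so the ratio did not pass at 0.05 after adjustment. Between ZT13 and ZT1 the log2 ratio differed by 0.12 in LPS-treated mice (exact p = 0.52) and by -0.39 in PBS-treated mice (exact p = 0.10, the smallest that 3 against 3 allows).

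**Figure D3:**
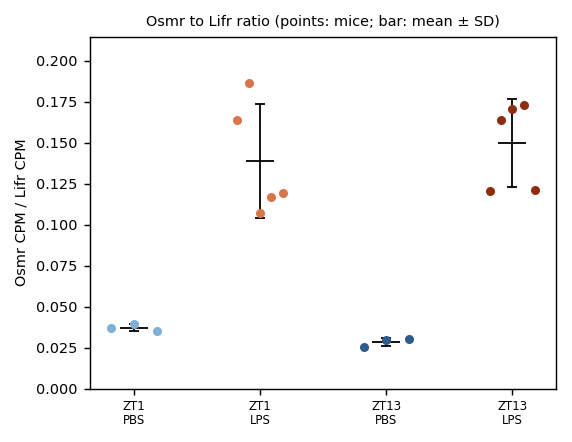
Ratio of Osmr CPM to Lifr CPM in each mouse, by group, on a linear axis from 0. Points are mice and bars are mean ± SD. PBS-treated mice lie between 0.0254 and 0.0393 and LPS-treated mice between 0.107 and 0.187.

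Stat3, the transcription factor that carries the signal (chr11:100885098-100939540, minus strand), rose at both times. It was at 45.6, 46.1 and 44.0 CPM in ZT1 PBS mice and at 93.9, 80.4, 67.8, 73.5 and 67.7 CPM in ZT1 LPS mice. At ZT13 it was at 44.0, 41.9 and 44.8 CPM after PBS and at 95.05, 97.8, 117, 116 and 79.3 CPM after LPS. PBS-treated mice sat close together at both TODs, and all 10 LPS-treated mice lay above them. The log2 fold change was 0.74 (SE 0.09, adjusted p = 3.4e-04) at ZT1 and 1.19 (SE 0.10, adjusted p = 8.2e-07) at ZT13. Stat3 shares 72 exon bases with Stat5a on the opposite strand, and Stat5a did not exceed 5.41 CPM.

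Socs3, the feedback inhibitor (chr11:117966079-117970047, minus strand), was at 4.29, 3.605 and 4.63 CPM in ZT1 PBS mice and at 15.95, 10.5, 13.6, 15.9 and 9.97 CPM in ZT1 LPS mice. At ZT13 it was at 2.77, 4.02 and 4.75 CPM after PBS and at 17.1, 21.6, 21.1, 23.1 and 18.001 CPM after LPS. Its LPS groups were separate from the PBS groups at both times and from each other. The log2 fold change was 1.53 (SE 0.16, adjusted p = 8.9e-05) at ZT1 and 2.27 (SE 0.14, adjusted p = 3.8e-08) at ZT13. By increase it was number 261 of 18859 genes at ZT1 and number 176 at ZT13.

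Socs2 (chr10:95385362-95417180, minus strand), an inhibitor best known for limiting growth hormone signalling, was at 19.4 to 19.6 CPM in ZT1 PBS mice and 16.7 to 21.6 CPM in ZT1 LPS mice. At ZT13 it was at 16.8 to 20.4 CPM after PBS and 17.9 to 19.0 CPM after LPS. The groups overlapped at both times, and the 95% CI of the log2 fold change was -0.18 to 0.19 at ZT1 and -0.19 to 0.10 at ZT13. The ZT1 estimate was 0.0039 and turned to -0.040 with median-of-ratios scaling and -0.07 with quantile normalization. After PBS, Socs2 was therefore the more abundant inhibitor by CPM per kb of exon (1.76 to 2.14 against 0.958 to 1.64 for Socs3). After LPS it was the less abundant on that scale (1.75 to 2.26 against 3.45 to 7.98). By CPM alone Socs2 stayed above Socs3 in ZT1 LPS mice (16.7 to 21.6 against 9.97 to 15.95), so the change of order there rests on the exon lengths used.

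STAT dimers are known to bind the palindrome TTCNNNGAA, so promoters were searched for these letters, which read the same on both strands. Among the members 8 have a promoter in the RefSeq table (GRCm38.p6, 250 bases before to 50 bases after the start), and Osm and Socs2 do not. Of these 8 genes, 1 held a match (Socs3), near the share of all genes with a promoter, 9.55% (2582 of 27025), while 8.30% of all 32851 promoters held one. The 250 bases before the Socs3 start are shown because Socs3 rose at both times and its promoter alone among the members holds a match, with the match in capitals (chr11:117969367-117969616, minus strand, written 5′ to 3′).
Socs3 promoter: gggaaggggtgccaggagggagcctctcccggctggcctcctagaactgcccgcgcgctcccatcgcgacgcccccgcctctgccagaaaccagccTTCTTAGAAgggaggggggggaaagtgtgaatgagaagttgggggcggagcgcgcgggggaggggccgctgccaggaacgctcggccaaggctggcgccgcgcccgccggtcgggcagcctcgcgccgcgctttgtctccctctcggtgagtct

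The match (chr11:117969512-117969520) starts 154 bases before the RefSeq start of Socs3. In the GENCODE M21 annotation it lies 326 bases upstream of the protein-coding transcript Socs3-201 and inside an intron of the noncoding transcript Socs3-202. Of the other genes listed for the pathway, matches were found in 2 of 15 STAT3 target genes (Gfap and Bcl6), 1 of 17 JAK-STAT genes (Cish) and 1 of 7 gp130 ligands and receptors (Il31ra). The matches of Gfap and Cish are set beside that of Socs3, each with 10 flanking bases on either side and the match in capitals, because these genes carry the same motif and differed in their values after LPS.
Socs3 (chr11, minus): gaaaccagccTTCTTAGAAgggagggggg
Gfap (chr11, minus): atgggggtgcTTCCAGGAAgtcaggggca
Cish, first match (chr9, plus): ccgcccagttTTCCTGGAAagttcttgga
Cish, second match (chr9, plus): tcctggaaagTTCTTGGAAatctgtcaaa

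Gfap, with 1 match, rose by 2.64 on the log2 scale at ZT1 and 3.09 at ZT13. Cish, a STAT5-responsive inhibitor with 2 matches, was at 5.73 to 7.20 CPM in ZT1 PBS mice and 5.64 to 7.21 CPM in ZT1 LPS mice, and did not pass the test at either time (adjusted p = 0.90 and 0.52). Bcl6, with several matches, did not pass at either time (limma adjusted p = 0.19 and 0.054). The Gfap match begins 2 bases before its RefSeq start and runs across it, and the Cish matches begin at positions 1 and 12 counted from its start. Osmr and Stat3, which rose at both times, had no match in this window. A match is a run of letters and was not tested as a binding site.

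Levels were compared between genes as CPM per kb of exon, taking all annotated exons of a gene together. That length can exceed the length of the transcripts present and so understate a level, and transcript forms were not measured. In ZT1 PBS mice the order was Lifr (8.53 ± 0.32, SD, n = 3), Il6st (8.38 ± 0.07), Stat3 (4.75 ± 0.12), Il11ra1 (3.58 ± 0.08), Socs2 (2.05 ± 0.01), Socs3 (1.44 ± 0.18), Il6ra (0.824 ± 0.053), Osmr (0.282 ± 0.009), Lif (0.180 ± 0.061) and Osm (0.0289 ± 0.0331). Only Lifr and Il6st overlapped among neighbours in this order. The ZT13 PBS mice gave the same order, with no neighbours overlapping.

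After LPS the order changed. In ZT13 LPS mice Stat3 (10.6 ± 1.7, SD, n = 5), Il6st (10.4 ± 0.4) and Lifr (10.1 ± 0.6) led with overlapping ranges. Socs3 (6.98 ± 0.87) followed and did not overlap Il11ra1 (3.39 ± 0.37). Il6ra (1.96 ± 0.30) and Socs2 (1.91 ± 0.05) overlapped, and Osmr (1.34 ± 0.21), Lif (0.175 ± 0.031) and Osm (0.111 ± 0.010) came last. In ZT1 LPS mice Il6st, Lifr and Stat3 again led, and Socs3 overlapped Il11ra1. Osmr, despite its fold change, thus remained below the other receptor chains by mean level in all 4 groups, though it overlapped Il6ra in ZT1 LPS mice.

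**Figure D4:**
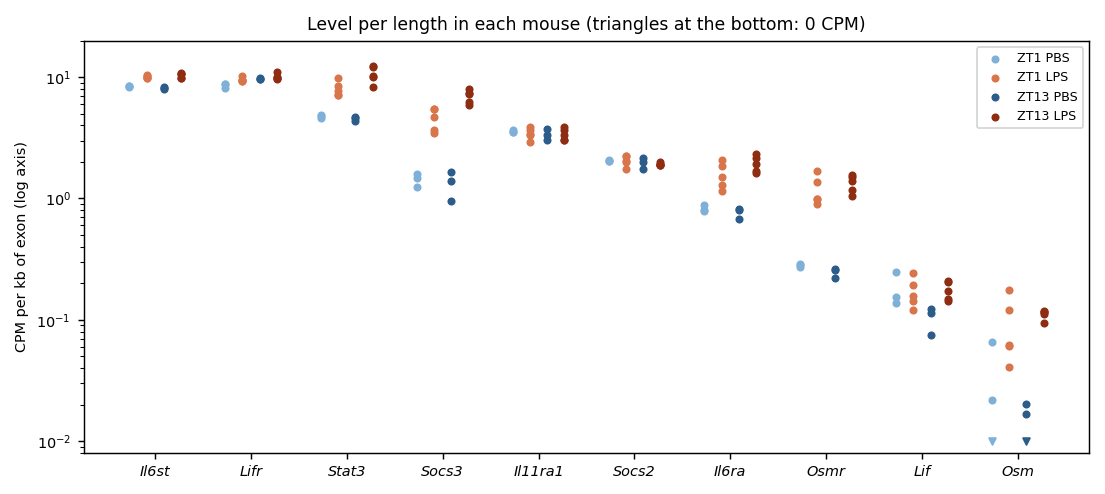
Level of each gene in each mouse as CPM per kb of exon, on a log axis, colored by group. Points are mice, and triangles at the lower edge mark mice at 0. Lifr and Il6st sit near the top in every group, Stat3 and Socs3 climb after LPS, and Lif and Osm stay below 0.3.

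Of 11 other ligands and receptors of the gp130 family listed, 6 were tested. At ZT1, 1 of 6 was higher (Ebi3, a subunit of IL-27 and IL-35), and at ZT13, 2 were higher (Ebi3 and Cntf) and 1 was lower (Cntfr). The calls at ZT1, 1 of 6, are near the 16.2% of all genes tested, and those at ZT13 stand beside 28.6%. Ebi3 and Cntf stayed under 1 CPM in every PBS-treated mouse and passed the filter only through LPS-treated mice. Being tested thus already favoured a higher value after LPS, so their calls and these counts are a description only. Ebi3 went from 0.664 to 0.882 CPM in ZT1 PBS mice to 1.61 to 2.57 CPM in ZT1 LPS mice, a log2 fold change of 0.98 (SE 0.16, adjusted p = 0.0021), and its log2 fold change was 1.26 (SE 0.24, adjusted p = 0.0013) at ZT13. Cntf, ciliary neurotrophic factor, differed by 0.35 on the log2 scale (adjusted p = 0.37) at ZT1 and rose by 0.83 (adjusted p = 0.0037) at ZT13, where it went from 0.448 to 0.987 CPM to 1.20 to 1.76 CPM. Cntfr, its receptor chain, was at 23.0 ± 1.2 CPM per kb in ZT1 PBS mice (SD, n = 3), above Lifr and Il6st on that scale, and fell by 0.26 on the log2 scale at ZT13 (adjusted p = 0.0052, and 0.055 without the filter on low values). With genes of at least 5 CPM alone tested, the list held 0 calls at ZT1 and 1 at ZT13, since Ebi3 and Cntf were then not tested.

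Among 22 other JAK-STAT kinases, factors and regulators, all tested, 7 were higher and 0 lower at ZT1 (12 at an unadjusted p under 0.05 in either direction by limma), and 11 were higher and 2 lower at ZT13. Among all genes tested, 11.1% were higher and 5.15% lower at ZT1 (5716 of 18859 at an unadjusted p under 0.05), and 19.2% were higher and 9.4% lower at ZT13. Over the list the median was 0.11 (ZT1) and 0.18 (ZT13) on the log2 scale. The 7 genes called at both times, against 13.1% of all genes tested, included Jak3, Ptpn6, Ptpn1 and Pias3. Ptpn1 passed narrowly at ZT1 (0.20 on the log2 scale, limma adjusted p = 0.0499). Ptpn6, encoding the leukocyte phosphatase SHP-1, rose by 1.72 (ZT1) and 2.64 (ZT13) on the log2 scale. Jak3, a kinase of lymphoid and myeloid cytokine receptors, rose by 1.05 and 1.37. Jak1, the main kinase at gp130, did not pass (0.06 and 0.07, adjusted p = 0.31 and 0.24). Of the remaining SOCS genes, Socs5 and Socs7 were lower at ZT13 (-0.24 and -0.16), the call of Socs7 being lost without the intensity trend (adjusted p = 0.052) and without ZT13 PBS replicate 3 (0.060), and Socs1, Socs4 and Socs6 passed at neither time.

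Of 20 genes listed as known STAT3 targets, 19 were tested, and 16 were higher and 0 lower at each TOD. Over the list the median was 1.62 (ZT1) and 1.74 (ZT13) on the log2 scale, and 15 genes were called at both times, against 13.1% of all genes tested. Lcn2, an iron-binding acute-phase protein, was at 0.0421 to 0.197 CPM in ZT1 PBS mice and at 107 to 326 CPM in ZT1 LPS mice, and at 0.0759 to 0.179 CPM and 278 to 418 CPM at ZT13. Serpina3n, a protease inhibitor of reactive astrocytes, was at 3.9996 to 4.93 CPM and 152 to 314 CPM at ZT1, and at 4.30 to 5.04 CPM and 288 to 339 CPM at ZT13. Timp1, an inhibitor of matrix metalloproteinases, went from at most 0.758 CPM to 7.84 to 20.1 CPM at ZT1 and from at most 0.786 CPM to 18.9 to 30.8 CPM at ZT13. With so few reads after PBS, the log2 fold change of Lcn2 depended on the pseudocount and ran from 7.34 to 9.70 at ZT1 and from 8.25 to 10.6 at ZT13 over the settings tried, and that of Timp1 from 3.10 to 4.23 and from 4.05 to 5.35. No LPS-treated mouse overlapped a PBS-treated mouse in these 3 genes. They are named because they had the largest increases of the list in these data, so their separation is a description only. Lcn2 and Timp1 stayed under 1 CPM in every PBS-treated mouse, so they passed the filter only through LPS-treated mice. The list was chosen with earlier results of these data known, so its counts beside the share of all genes are a description only. Many of these genes also answer to other factors, and the list is an account of named genes, not of STAT3 activity.

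**Figure D5:**
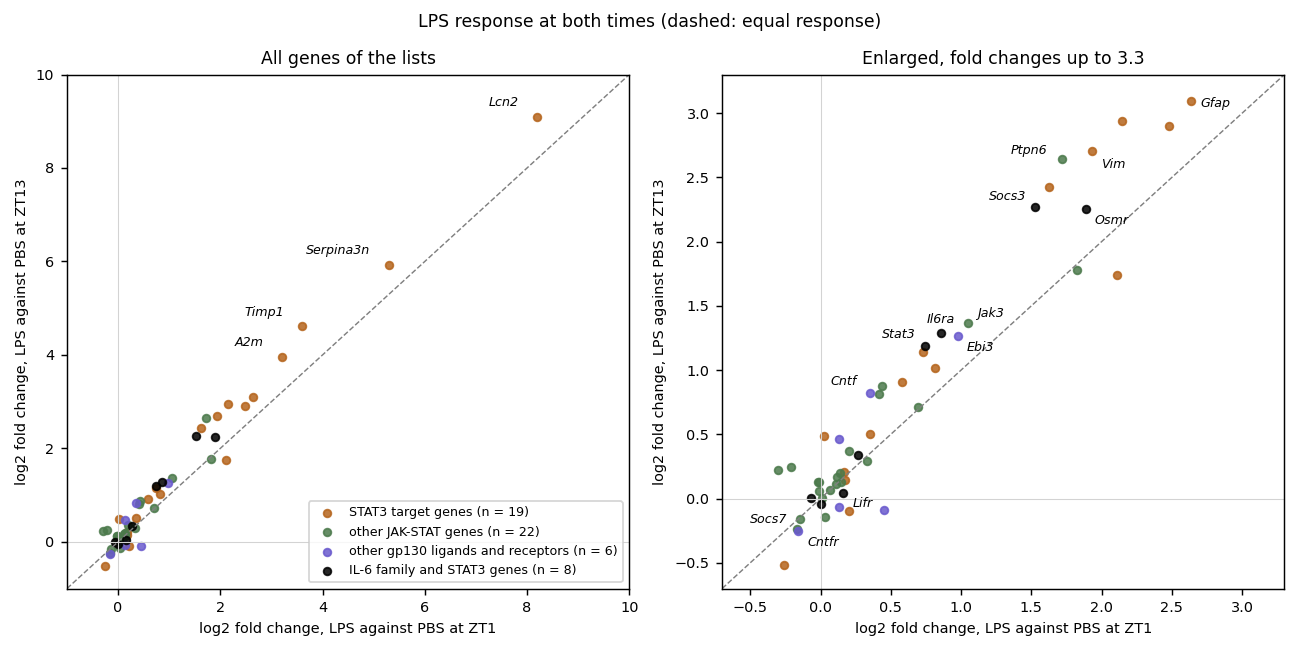
log2 fold change of LPS against PBS at ZT1 (horizontal) and ZT13 (vertical) for each tested gene of the 4 lists, with the range up to 3.3 enlarged in the second panel. Each point is a gene and the dashed line marks equal values. STAT3 target genes reach 8.19 (ZT1) and 9.10 (ZT13) for Lcn2 with a pseudocount of 0.5, while Socs3 and Osmr lie between 1.5 and 2.3 on both axes.

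TOD was compared next within treatments. In LPS-treated mice, 0 of the 8 members passed between ZT13 and ZT1, as did 0.0212% of all genes tested (4 of 18859), and 3 members (Socs3, Stat3 and Il6ra) had an unadjusted p under 0.05 by limma. Socs3 was 9.97 to 15.95 CPM in ZT1 LPS mice and 17.1 to 23.1 CPM in ZT13 LPS mice, so the groups did not overlap. Its log2 difference was 0.61 (SE 0.13, adjusted p = 0.11), higher in 5 of 5 ZT13 mice than in every ZT1 mouse (exact permutation p = 0.0079, the smallest that 5 against 5 allows, unadjusted). Stat3 differed by 0.39 (SE 0.11, adjusted p = 0.19, exact permutation p = 0.032 unadjusted) with overlapping groups, and Il6ra by 0.32 (SE 0.15, adjusted p = 0.45). For Osmr the difference was 0.19 (95% CI -0.15 to 0.53), for Il6st 0.04 (-0.04 to 0.11) and for Lifr 0.07 (-0.02 to 0.16).

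The TOD result depended on 1 mouse. Without ZT1 LPS replicate 1, which had the highest Il6ra, Il6st, Stat3 and Socs3 of its group, Socs3 (0.69, adjusted p = 0.024) and Stat3 (0.47, adjusted p = 0.034) were called higher at ZT13, among 345 of 18859 genes. With sample weights that lower the influence of variable libraries they were also called (adjusted p = 0.032 and 0.034), among 225 genes. That mouse also had the highest endothelial (207 CPM), neutrophil (45.3 CPM) and choroid plexus (841 CPM) marker sums of the ZT1 LPS group. ZT1 LPS replicate 4 was close to it in the endothelial (205 CPM) and neutrophil (40.2 CPM) sums. It was higher than replicate 1 in the microglial sum (389 against 360 CPM) and far lower in the choroid plexus sum (17.3 CPM). Without replicate 4, 5 of 18859 genes were called. Over the ZT1 LPS and ZT13 LPS groups, 6 of 6 endothelial markers had a positive difference and 0 passed (3 at an unadjusted p under 0.05 by limma), with a median of 0.32. Neutrophil markers had a positive difference for 4 of 4 tested genes, with 0 past adjustment, 3 at an unadjusted p under 0.05 by limma and a median of 1.49. Monocyte and perivascular macrophage markers had one for 4 of 4, with 0 past adjustment, 1 at an unadjusted p under 0.05 by limma and a median of 0.34. The part of these markers in the Socs3 and Stat3 values was not tested.

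Of the 19 STAT3 target genes tested, 0 passed between LPS groups. The estimate was positive for 18 of 19, and 15 had an unadjusted p under 0.05 by limma, as did 1998 of the 18859 genes tested. The median difference was 0.37 beside 0.01 over all genes tested, for a list chosen with earlier results of these data known. Without ZT1 LPS replicate 1, 9 of 19 passed, without replicate 2, 1 passed, with sample weights 8 did and in a single fit of all 16 mice 5 did. In the interaction test described next 0 of 19 passed (9 at an unadjusted p under 0.05 by limma), with a positive estimate for 15, while 2 passed without ZT1 LPS replicate 1 and 1 without ZT13 PBS replicate 1.

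The test of the difference itself, the TOD by LPS interaction over all 16 mice, called 0 of 8 members and 0.159% of all genes tested. Stat3 (0.45, SE 0.15, unadjusted p = 0.0096, adjusted p = 0.34) and Socs3 (0.74, SE 0.23, unadjusted p = 0.0053, adjusted p = 0.28) had an unadjusted p under 0.05 by limma. For Lifr the estimate was negative (-0.12, 95% CI -0.25 to 0.02). Hence the larger LPS fold changes of Stat3 and Socs3 at ZT13 were not shown to differ from those at ZT1 after adjustment. In the same test 4 of 6 endothelial markers (Cdh5, Cldn5, Flt1 and Pecam1) passed with a positive estimate. Flt1 was lower after LPS at ZT1 (-0.32) and higher at ZT13 (0.24). Of the neutrophil markers 0 of 4 passed (3 at an unadjusted p under 0.05 by limma). The interaction and the TOD comparisons use the same mice as the LPS comparisons.

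In PBS-treated mice, 0 of 8 members passed between ZT13 and ZT1, and 0.52% of all genes tested did. Lifr was 88.0 to 93.9 CPM at ZT1 and 104 to 105 CPM at ZT13, with no overlap. The exact permutation p was 0.10, the smallest that 3 against 3 allows, so separate groups alone say little here. Its log2 difference of 0.19 (SE 0.04) had an unadjusted p of 6.1e-04 by limma and an adjusted p of 0.072, and it passed when genes of at least 5 CPM alone were tested (adjusted p = 0.048). Socs3 (-0.13, 95% CI -0.53 to 0.28, and 0.07 without ZT13 PBS replicate 1) and Stat3 (-0.05, 95% CI -0.16 to 0.05) overlapped between the PBS groups. Osmr did not overlap (3.28 to 3.50 CPM at ZT1 and 2.66 to 3.18 CPM at ZT13, exact permutation p = 0.10 again). Its difference of -0.17 did not pass (limma adjusted p = 0.61). Lif had 12 to 22 reads at ZT1 and 7 to 13 at ZT13 in PBS-treated mice (0.136 to 0.249 and 0.0744 to 0.124 CPM per kb, exact permutation p = 0.10, the smallest that 3 against 3 allows). Among endothelial markers, Cldn5 and Flt1 were lower at ZT13 in PBS-treated mice, and their part in the member values was not tested.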

How the data were processed

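Libraries were ribosomal RNA-depleted cortex RNA. Values were deposited by the authors as CPM (reads on a gene per 1000000 reads on all genes). The submitters' processing notes name bcl2fastq, DRAGEN 4.0.3-8 and GRCm38, and the counting strand is not given in the sources used here. Of 55774 lines, 287 identical repeats were removed. Depth was 20251840 to 29112758 reads on genes per sample. Of values of up to 20 reads, 80.9% to 82.5% were whole (within 0.01 read), so no count test across genes was run, and the reads of Osm, Lif and Il6 are whole-number estimates whose intervals are given as a description. A count of up to 3 reads was taken as the floor.

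Genes reaching 1 CPM in 3 or more of the 16 mice were compared as log2(CPM + 0.5) with limma 3.58.1 (R 4.3.3, intensity trend, Benjamini-Hochberg over 18859 genes, called at an adjusted p under 0.05). Pairwise comparisons used their own 2 groups and the interaction all 16 mice. Exact permutation tests were two-sided. SE is that of the fit, and ± is the SD between mice. P-values rest on 3 to 5 mice per group. The fit was also run on simulated counts with the same spread set for every gene, which does not show its error rate in these mice. Tables and plots were made with Python 3.11.15.

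The members and lists were chosen with earlier results of these data known. All 10 members are named, and of each other list the 3 largest increases and 3 largest decreases among genes called at either time, with Il6 and Gfap (1 gene that the rule names is not reported here), while Cish, Jak1, and genes named in counts were added after their values were seen. A planned search of receptor proteins was not run, since protein sequences were not used here. The alternatives were pseudocounts of 0.1 and 1, filters at any reads and at 5 CPM, median-of-ratios and quantile scaling, no trend, sample weights, a replicate block, a single fit, and leaving out each mouse.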

Additional observations from a re-analysis of the deposited data

Results flagged for a closer look

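Lifr in ZT1 LPS replicate 2 was at 110.0 CPM, while the other 4 mice of its group lay between 100.01 and 102 CPM. Its gap to the nearest mouse was 0.762 of the range of the group, above the 95% critical value of 0.71 for 5 samples. It was the only such value among 22 groups of member values and Osmr to Lifr ratios that were checked, and chance alone gives about 1 in 20.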

How the results depend on the processing

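Osmr, Socs3, Stat3 and Il6st were called higher at both TODs under every alternative run. Between LPS groups, 0 members were called with the main settings, 2 (Socs3 and Stat3) with sample weights, and 0 to 2 when each mouse was left out in turn. Between PBS groups, 0 were called and 1 (Lifr, adjusted p = 0.048) with the filter at 5 CPM. The replicate numbers are not stated to pair the mice. Over 20 pairs with the same number the residual correlation ran from -0.20 to 0.33, with 3 over 0.1, which cannot decide whether mice were paired. With a replicate block 5 members were called at ZT1, 5 at ZT13 and 0 in each of the other comparisons, Lifr being lost at ZT1 (adjusted p = 0.093), and over all genes 2637 were called at ZT1 and 4680 at ZT13. The exceptions among the other members' LPS calls were Il6ra at ZT1 without the filter (adjusted p = 0.061) and Lifr at ZT1 without the filter (0.074), with median-of-ratios scaling (0.15), without the trend (0.094) and in 5 of 8 fits without 1 mouse.

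Over all genes the counts of calls moved more. At ZT1, 3061 genes were called, 1605 without the filter and 1767 to 1870 without 1 of the PBS-treated mice. The ZT1 count was 4097 with sample weights, 4048 in a single fit of all mice, and 2453 to 3758 without 1 of the LPS-treated mice. Between LPS groups 4 were called, 225 with sample weights, 122 in a single fit of all mice, 1 without the filter, 0 without the trend, and 0 to 345 without 1 mouse. In the interaction 30 were called, 124 with sample weights, 12 without the filter, 11 without the trend, and 7 to 104 without 1 mouse. Between PBS groups 98 were called, 199 after quantile normalization, 158 with the filter at 5 CPM, 65 without the filter and 57 with the block. The count there was 43 in a single fit, 3 without the trend, and 12 to 87 without 1 mouse.

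Estimates near 0 changed sign. Socs2 at ZT1 turned to -0.040 with median-of-ratios scaling, -0.070 with quantile normalization, -0.058 with sample weights and -0.027 with the block. Il11ra1 at ZT13 turned to -0.054, -0.13, -0.0061 and -0.058 in that order, Lifr at ZT13 to -0.011 with median-of-ratios scaling, and the Socs2 interaction to 0.015 with sample weights. Leaving out each mouse, Socs2 ran from -0.030 to 0.059 at ZT1, -0.12 to 0.017 at ZT13, -0.12 to 0.013 in the interaction and -0.11 to 0.021 between PBS groups. Il11ra1 ran from -0.069 to 0.075 at ZT13, -0.0051 to 0.14 in the interaction and -0.075 to 0.023 between LPS groups, and Socs3 from -0.28 to 0.066 between PBS groups. The cause was not tested.

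The log2 differences of Osm and Lif depend on the pseudocount (Osm at ZT13 was 0.51 with 0.5, 1.48 with 0.1 and 0.29 with 1), as do those of Lcn2 (at ZT13, 10.6 with 0.1 and 8.25 with 1) and Timp1 (5.35 and 4.05). Cntfr at ZT13 was lost without the filter (adjusted p = 0.055), and Socs7 at ZT13 without the trend (0.052) and without ZT13 PBS replicate 3 (0.060). With 3 PBS-treated mice at each TOD, small differences between PBS groups were not detectable, and Osm and Lif rest on few reads per mouse.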

Other observations

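The mice of a group did not rank alike across the members. In the ZT1 LPS group, replicate 1 was highest for Il6ra, Il6st, Stat3 and Socs3 and lowest for Osm and Il11ra1, whereas replicate 2 was highest for Osm, Osmr and Lifr. Replicate 2, with the highest Osmr (20.5 CPM), had the lowest endothelial (149 CPM), microglial (232 CPM) and neutrophil (8.19 CPM) marker sums of the 5 mice. In the ZT13 LPS group, replicate 4 was highest for Il6st, Osmr and Socs3, and replicate 5 was lowest for Osmr, Stat3 and Socs2.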
